A study of Mus musculus with 10 samples.

Results

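The genes for serine synthesis, asparagine synthesis and folate-dependent one-carbon metabolism were followed in mouse embryonic fibroblasts moved to low CO2. They were taken from the deposited gene counts by name, and all 10 names (Phgdh, Psat1, Psph, Shmt1, Shmt2, Mthfd1, Mthfd2, Mthfd1l, Aldh1l2 and Asns) matched 1 identifier each among 78317 genes. The cells were a wildtype line made immortal by T antigen, which binds and blocks the tumour suppressors p53 and Rb, and both groups were grown in complete medium at 37 °C under 10% CO2. For 24 h, 5 libraries were then kept at 2% CO2 (hypocapnia, less CO2 than the culture was used to) and 5 libraries at 10% CO2. At each level, replicates 4 and 5 were labelled batch 2 and replicates 1 to 3 batch 1, without a statement of what a batch was. Only 1 immortalized line is named and nothing says that the libraries came from separate cultures, so p-values reflect library-to-library spread that may be purely technical.

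Serine is made from a glycolytic intermediate in a short cytosolic chain of a dehydrogenase (Phgdh), a transaminase (Psat1) and a phosphatase (Psph). Serine hydroxymethyltransferases then pass a carbon of serine to folate, in the cytosol (Shmt1) or in mitochondria (Shmt2), and folate enzymes of the same compartments interconvert and release these carbons as formate for purine and thymidylate synthesis. Asparagine synthetase (Asns) makes asparagine from aspartate and glutamine. In many mammalian cells the transcription factor Atf4, made when amino acids are short or the endoplasmic reticulum is stressed, switches on the serine chain, the mitochondrial folate enzymes and Asns together.

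Depth differed between the CO2 levels in opposite ways in the batches. In batch 2 the libraries at 2% CO2 held 12354538 and 12046407 counts, against 10607076 and 892318 counts at 10% CO2. In batch 1 those at 2% CO2 held 2621598, 178676 and 506405 counts, against 5694026, 8985537 and 8101893 counts at 10% CO2. In the shallowest library, replicate 2 at 2% CO2, 1 count was worth 5.60 CPM (counts per 1e+06 counts of the library) and the 10 genes had between 5 and 34 counts. Of 8 fibroblast markers 7 were detected in every library, with summed levels of 4615 to 8604 CPM at 2% CO2 and 8288 to 12970 CPM at 10% CO2. Most of the sum came from Col1a1, Col1a2, Vim and Fn1. Pdgfra averaged 2.01 CPM at 2% CO2 and 1.16 CPM at 10% CO2 and was at 0 in 1 library. S100a4 averaged 117 CPM at 2% CO2 and 64.7 CPM at 10% CO2. By these means S100a4 and Pdgfra were higher at 2% CO2 and the other fibroblast markers lower. The epithelial list ran from 64.4 to 111 CPM at 2% CO2 and from 42.9 to 73.9 CPM at 10% CO2, most of it Krt19, and the endothelial list from 7.90 to 14.97 CPM and from 4.07 to 7.73 CPM at these levels. The neural list, most of it Tubb3, ran from 27.7 to 67.2 CPM at 2% CO2 and from 27.7 to 58.3 CPM at 10% CO2, the macrophage list from 0 to 3.95 CPM and from 2.35 to 4.53 CPM and the muscle list from 0 to 5.60 CPM and from 0.223 to 3.36 CPM at these levels, and Adgre1 and Sox10 were at 0 throughout. The part of these markers in the results below was not tested, and in bulk RNA fewer cells that express a gene and less of its RNA per cell cannot be told apart. Values are CPM without correction for gene length, so levels are compared between libraries and not between genes.

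With batch as a term of the model, Shmt1 rose at 2% CO2 and Mthfd2 and Aldh1l2 fell, while the other 7 genes did not pass the test (edgeR's quasi-likelihood F test, Benjamini-Hochberg adjusted p under 0.05 over all genes tested). The same fit called 12.0% of 13198 genes, 5.30% higher and 6.73% lower, beside which stand 1 of 10 higher and 2 of 10 lower here, a count too small to read as particular to the list. The median log2 fold change (2% minus 10% CO2 throughout) was -0.26 over the 10 genes and 0.00 over all genes tested. With each library left out in turn, between 0 and 4 of the 10 genes were called. None was called without replicate 4 at 10% CO2, and 1 each was called without replicate 1 at 10% CO2 or without replicate 4 at 2% CO2. With no batch term, or with a minimum fold of 1.2 in the test, none of the 10 was called.

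The batches gave different pictures. In batch 2, Shmt1 rose and Asns and Aldh1l2 fell at 2% CO2, 3 of the 10 genes against 1.83% of 14627 genes tested there (0.848% higher and 0.978% lower), and at an unadjusted p under 0.05 there were 7 of 10 against 19.2%. In batch 1 none of the 10 passed, against 6.22% of 12275 genes, and neither DESeq2 nor an unadjusted edgeR p under 0.05, which 23.0% of genes met, picked any. The median log2 fold change was -0.32 in batch 2 and -0.07 in batch 1, and 8 of the 10 genes had the larger change in batch 2. Psph and Shmt2 had opposite signs in the batches, as did 36.2% of the genes tested in both. Without replicate 4 or 5 at 2% CO2, none of the 10 genes was called in batch 2.

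The difference between the batches was also tested itself, as a CO2 by batch term. None of the 10 genes passed after adjustment, and neither did any other gene (0% of 13198). At an unadjusted p under 0.05, 4 of the 10 differed, against 8.75% of all genes: Asns, Aldh1l2 and Psph had the lower log2 fold change in batch 2 (5.29% of all genes) and Shmt1 the higher. Asns was the closest, at a difference of -0.80 ± 0.19 (SE; unadjusted p = 0.00057, adjusted p = 0.351), which ranked 21 among all genes. DESeq2 called this difference for Asns (adjusted p = 0.0334), the only one of the 10 among 57 genes that DESeq2 called. Without the 3 shallowest libraries, a setting added after seeing the data, the Asns difference was -0.77. These libraries were replicates 2 and 3 at 2% CO2 in batch 1 and replicate 5 at 10% CO2 in batch 2. A lone library was then left at 2% CO2 in batch 1, and a lone library at 10% CO2 in batch 2.

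**Figure D1:**
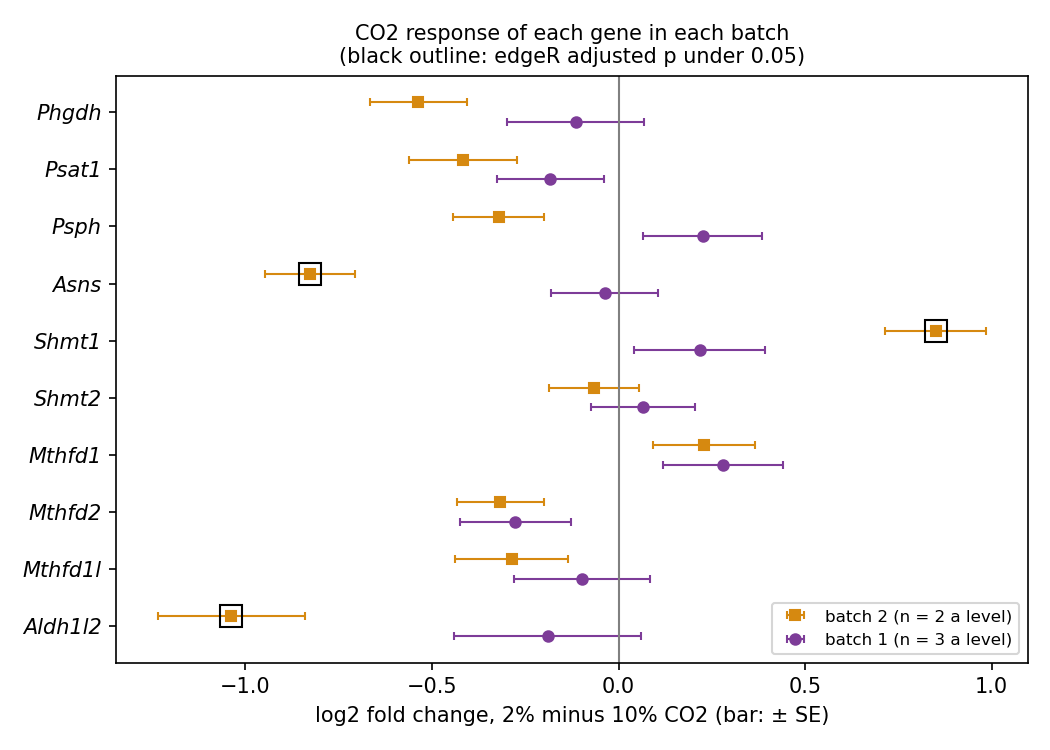
Log2 fold change of each gene at 2% against 10% CO2 (x axis) in batch 2 (orange squares, n = 2 a level) and batch 1 (purple circles, n = 3 a level), with bars of ± 1 standard error and a black outline where the edgeR adjusted p was under 0.05. The 3 outlined values, Asns at -0.83, Shmt1 at 0.85 and Aldh1l2 at -1.04, all belong to batch 2, and the batch 1 values lie between -0.28 and 0.28.

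Asns carried the clearest contrast between the batches. In batch 2 it had 106 and 113 CPM at 2% CO2, against 174 and 191 CPM at 10% CO2. In batch 1 it had 126, 140 and 122 CPM at 2% CO2, against 138, 126 and 121 CPM at 10% CO2. The levels were well apart in batch 2, with both libraries at 2% CO2 the lowest of all 10, and overlapped in batch 1. Its log2 fold change was -0.83 ± 0.12 (SE; adjusted p = 0.0168) in batch 2 and -0.04 ± 0.14 (adjusted p = 0.990) in batch 1. Over all libraries it was -0.42 ± 0.14 (adjusted p = 0.0524), short of the threshold. That value passed without replicate 1 at 2% CO2 (adjusted p = 0.00783), without replicate 2 (0.0302) or 3 (0.0451) at 10% CO2, with no filter on low counts (0.0203) and with limma-voom (0.0491). The batch 2 call was lost without replicate 4 (adjusted p = 0.248) or 5 (0.146) at 2% CO2. Counts of Asns were fractional in 6 libraries, with no stated origin of the fractions, so its level is uncertain where reads were split among genes.

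Atf4 binds a composite element, the CCAAT-enhancer-binding protein and activating transcription factor response element, that is known from the promoter of Asns. The motif TGATGNAA (TTNCATCA on the other strand) was looked for on both strands of the RefSeq promoter windows, which run from 250 bases before to 50 bases after a gene's start on build GRCm38.p6. The table held 10 windows for 9 of the 10 genes and no entry for Aldh1l2. Only the Asns window held the motif, as did 3.97% of all 32851 promoter windows. It is shown because Asns is the gene that fell in batch 2 and carries the match, a choice made after its values were seen. The window is chr6:7693160-7693459, minus strand, and the capitals mark the match, which starts 23 bases before the start site.
Asns promoter: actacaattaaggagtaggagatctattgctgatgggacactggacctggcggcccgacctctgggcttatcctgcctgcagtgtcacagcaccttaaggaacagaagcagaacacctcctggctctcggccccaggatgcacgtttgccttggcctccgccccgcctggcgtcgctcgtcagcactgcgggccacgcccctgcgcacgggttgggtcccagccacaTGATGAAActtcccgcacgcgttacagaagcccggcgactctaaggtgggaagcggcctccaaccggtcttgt
The match describes these letters and says nothing of whether a factor was bound in these cells.

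None of the serine synthesis genes passed the main test with all libraries and the filter on low counts in place, in either batch or over both. With the replicate number added to the model as a block, Phgdh (adjusted p = 0.0279) and Psat1 (0.0333) did pass over all libraries. Phgdh, the dehydrogenase that starts the chain, had 69.5 and 68.8 CPM at 2% CO2 in batch 2, against 87.9 and 105 CPM at 10% CO2. Batch 1 gave 201, 136 and 133 CPM at 2% CO2, against 193, 150 and 192 CPM at 10% CO2. The levels did not overlap in batch 2, while in batch 1 replicate 1 at 2% CO2 was the highest library and replicates 2 and 3 the lowest. The log2 fold change was -0.54 ± 0.13 (SE; adjusted p = 0.0751) in batch 2, -0.11 ± 0.18 (0.768) in batch 1 and -0.31 ± 0.15 (0.185) over all libraries. Without replicate 1 at 2% CO2 the value over all libraries was -0.54 and passed (adjusted p = 0.00619). With no filter on low counts the batch 2 value was -0.49 and passed (adjusted p = 0.01602). Phgdh counts were fractional in 9 of the 10 libraries.

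Psat1, the transaminase of the chain, had 128 and 153 CPM at 2% CO2 in batch 2, against 161 and 196 CPM at 10% CO2. The batch 1 libraries had 206, 190 and 269 CPM at 2% CO2, against 253, 234 and 252 CPM at 10% CO2. The levels were apart in batch 2 and overlapped in batch 1, where replicate 3 at 2% CO2 was the highest library of all. Its log2 fold change was -0.42 ± 0.15 (SE; adjusted p = 0.172) in batch 2, -0.18 ± 0.14 (0.481) in batch 1 and -0.30 ± 0.11 (0.0893) over all libraries. Without replicate 3 at 2% CO2 the last of these was -0.38 and passed (adjusted p = 0.0398).

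Psph, the phosphatase that releases serine, was the member of the chain whose sign turned between the batches. It had 63.9 and 71.4 CPM at 2% CO2 in batch 2, against 78.5 and 79.6 CPM at 10% CO2. In batch 1 it had 162, 118 and 130 CPM at 2% CO2, against 124, 110 and 131 CPM at 10% CO2. The levels overlapped in batch 1, where replicate 1 at 2% CO2 stood highest. The log2 fold change was -0.32 ± 0.12 (SE; adjusted p = 0.201) in batch 2 and 0.23 ± 0.16 (0.429) in batch 1, a difference of -0.56 ± 0.22 (unadjusted p = 0.0199, adjusted p = 0.513), and over all libraries it was -0.02 ± 0.13 (0.961).

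The chain also differed between the batches at both CO2 levels. In the batch term of the model (batch 2 minus batch 1), Phgdh was lower at a log2 fold change of -1.11 ± 0.15 (SE; adjusted p = 2.98e-05), Psph at -0.87 ± 0.13 (6.44e-05) and Psat1 at -0.58 ± 0.11 (0.000746). Mthfd2 (0.54 ± 0.09), Mthfd1l (0.49 ± 0.12), Shmt2 (0.47 ± 0.10) and Shmt1 (0.44 ± 0.13) were higher in batch 2, and Asns, Mthfd1 and Aldh1l2 did not pass. Thus 7 of the 10 genes differed between the batches, 4 higher and 3 lower, beside 36.0% of all genes, 17.4% higher and 18.5% lower. All batch 2 libraries lay below all batch 1 libraries for Phgdh and Psph, and above them for Shmt2, Mthfd2 and Mthfd1l, a separation that 16.2% of all genes showed.

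**Figure D2:**
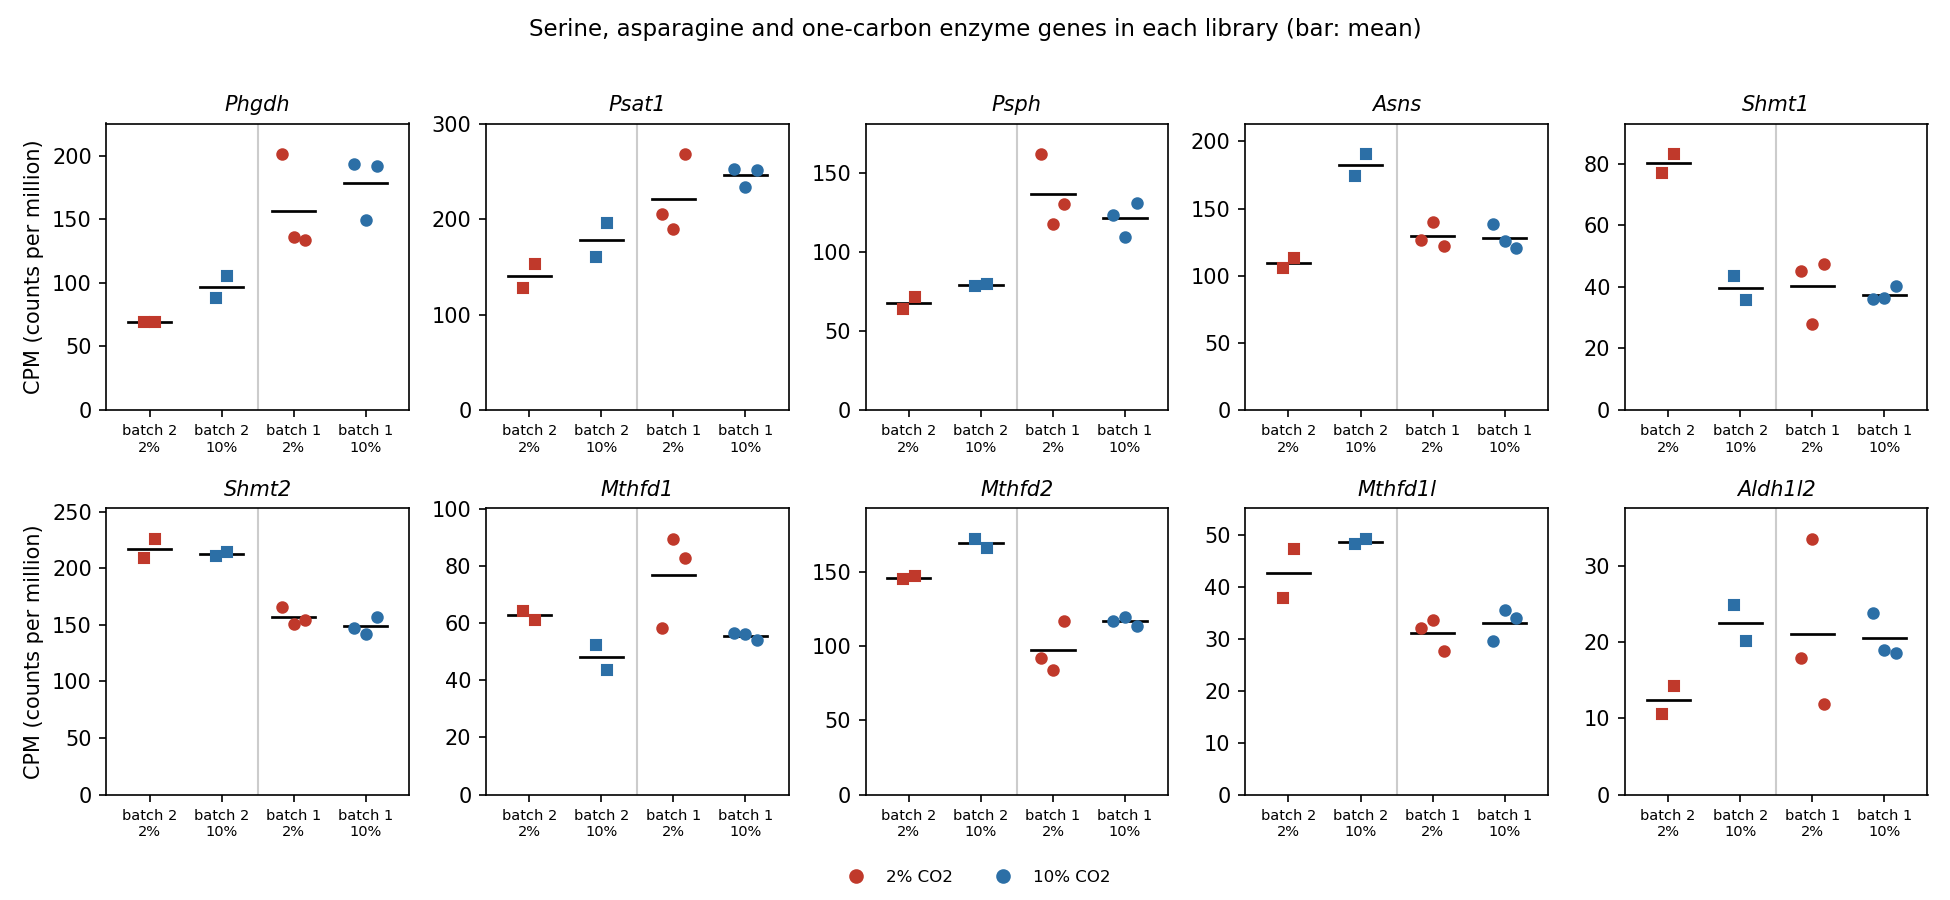
CPM (y axis, starting at 0, a separate scale for each gene) of the 10 genes in each library, with batch 2 (squares) left of batch 1 (circles), 2% CO2 in red and 10% CO2 in blue, and a bar at the mean. Asns and Aldh1l2 are lower and Shmt1 is higher at 2% CO2 in batch 2, with no such separation in batch 1, and Phgdh and Psph are lower in batch 2 than in batch 1 at both levels.

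Of the serine hydroxymethyltransferases, the cytosolic gene rose at 2% CO2 and the mitochondrial one did not pass the test. Shmt1, the cytosolic enzyme, had 77.1 and 83.1 CPM at 2% CO2 in batch 2, against 43.5 and 35.9 CPM at 10% CO2. Batch 1 gave 45.0, 28.0 and 47.4 CPM at 2% CO2, against 36.0, 36.2 and 40.1 CPM at 10% CO2. In batch 1 replicates 1 and 3 at 2% CO2 were above all libraries at 10% CO2 and replicate 2 was below them, but its value rested on 5 counts (exact 95% binomial interval 9.09 to 65.3 CPM, counting error only). Its log2 fold change was 0.85 ± 0.14 (SE; adjusted p = 0.0227) in batch 2, 0.22 ± 0.17 (0.496) in batch 1 and 0.54 ± 0.13 (0.0143) over all libraries, with a difference between the batches of 0.63 ± 0.22 (unadjusted p = 0.0110, adjusted p = 0.499). The call over all libraries was lost without replicate 4 at 10% CO2 (0.43, adjusted p = 0.133), with no batch term (0.134) and with a minimum fold of 1.2 in the test (0.113). That in batch 2 was lost without replicate 4 (0.194) or 5 (0.175) at 2% CO2.

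Shmt2, the mitochondrial enzyme, had 209 and 226 CPM at 2% CO2 in batch 2, against 211 and 214 CPM at 10% CO2. The batch 1 libraries had 166, 151 and 154 CPM at 2% CO2, against 147, 142 and 157 CPM at 10% CO2. These CPM of the levels overlapped in both batches. The log2 fold change was -0.07 ± 0.12 (SE; adjusted p = 0.827) in batch 2, 0.07 ± 0.14 (0.835) in batch 1 and -0.01 ± 0.10 (0.983) over all libraries. A ratio of counts within a library does not depend on the library's scaling, but its error grows where depth is low. The plot of count ratios shows 3 such ratios, chosen after the values were seen and given without a test. The count ratio of Shmt1 to Shmt2 was 0.369 and 0.368 at 2% CO2 in batch 2, against 0.206 and 0.168 at 10% CO2. In batch 1 it was 0.272, 0.185 and 0.308 at 2% CO2, against 0.244, 0.255 and 0.255 at 10% CO2. The ratio was thus higher at 2% CO2 in both libraries of batch 2, and in batch 1 the 2% CO2 libraries lay on both sides of those at 10% CO2.

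The paired folate enzymes Mthfd1 and Mthfd2 had opposite signs at 2% CO2, each the same in both batches. Mthfd1, the trifunctional cytosolic enzyme, had 64.2 and 61.3 CPM at 2% CO2 in batch 2, against 52.4 and 43.7 CPM at 10% CO2. In batch 1 it had 58.4, 89.5 and 82.9 CPM at 2% CO2, against 56.7, 56.1 and 54.1 CPM at 10% CO2. Every library at 2% CO2 was thus above every library at 10% CO2, which held for 5.18% of all genes tested in 1 direction or the other. Mthfd1 was the only one of the 10 genes with this separation, and its levels overlapped once the TMM scaling of the test was applied, after which 5.52% of all genes were separated. The log2 fold change was 0.23 ± 0.14 (SE; adjusted p = 0.397) in batch 2, 0.28 ± 0.16 (0.319) in batch 1 and 0.25 ± 0.11 (0.139) over all libraries, none of which passed.

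Mthfd2, the mitochondrial dehydrogenase and cyclohydrolase, had 145 and 147 CPM at 2% CO2 in batch 2, against 172 and 166 CPM at 10% CO2. Batch 1 gave 91.9, 84.0 and 117 CPM at 2% CO2, against 117, 119 and 113 CPM at 10% CO2. The levels were apart in batch 2, and in batch 1 replicates 1 and 2 at 2% CO2 were the lowest while replicate 3 lay among those at 10% CO2. After TMM scaling replicate 3 of Mthfd2 also lay below them, at 111 CPM against 116 CPM for the lowest. Its log2 fold change was -0.31 ± 0.10 (SE; adjusted p = 0.0428) over all libraries, with -0.32 ± 0.12 (0.189) in batch 2 and -0.28 ± 0.15 (0.279) in batch 1. The call was a narrow one. It was lost on leaving out any 1 library except replicate 3 at 2% CO2 or replicate 5 at 10% CO2, with adjusted p up to 0.139 without replicate 4 at 10% CO2. It was also lost with library totals in place of TMM scaling (0.145), with no filter (0.155) and without the 3 shallowest libraries (0.0654).

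The count ratio of Mthfd1 to Mthfd2 was 0.442 and 0.418 at 2% CO2 in batch 2, against 0.305 and 0.264 at 10% CO2. In batch 1 it was 0.635, 1.07 and 0.712 at 2% CO2, against 0.485, 0.470 and 0.477 at 10% CO2. Within each batch the ratio was higher in every library at 2% CO2 than in any at 10% CO2. In batch 1, however, replicates 2 and 3 at 2% CO2 rested on 16 and 42 counts of Mthfd1 and 15 and 59 of Mthfd2. How often other gene pairs separate in this way was not tested. Across the batches the levels overlapped, and the ratio was lower in batch 2 at both. The count ratio of Asns to Shmt2 was 0.506 and 0.501 at 2% CO2 in batch 2, against 0.829 and 0.890 at 10% CO2. Batch 1 gave 0.764, 0.926 and 0.795 at 2% CO2, against 0.939, 0.883 and 0.767 at 10% CO2, with no separation of the levels.

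**Figure D3:**
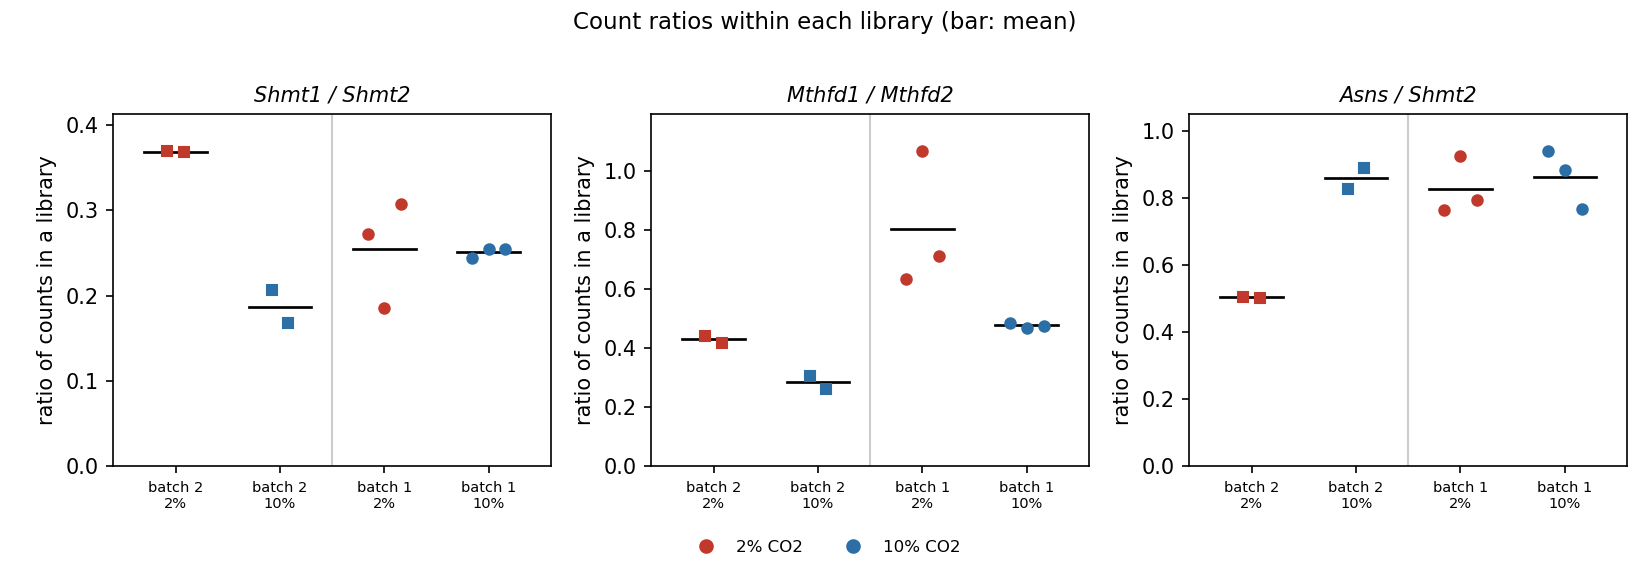
Ratio of counts within each library (y axis, starting at 0, no unit) for 3 gene pairs, with batch 2 (squares) left of batch 1 (circles), 2% CO2 in red and 10% CO2 in blue, and a bar at the mean. The ratio of Mthfd1 to Mthfd2 is higher at 2% CO2 in both batches, while those of Shmt1 to Shmt2 and of Asns to Shmt2 separate the levels in batch 2 only.

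Mthfd1l, the mitochondrial enzyme that releases formate, did not pass. It had 38.0 and 47.4 CPM at 2% CO2 in batch 2, against 48.3 and 49.3 CPM at 10% CO2. The batch 1 libraries had 32.0, 33.6 and 27.6 CPM at 2% CO2, against 29.7, 35.6 and 34.1 CPM at 10% CO2. The libraries at 2% CO2 were lower in batch 2, by little for replicate 5, and overlapped with the others in batch 1. The log2 fold change was -0.29 ± 0.15 (SE; adjusted p = 0.343) in batch 2, -0.10 ± 0.18 (0.809) in batch 1 and -0.21 ± 0.12 (0.271) over all libraries.

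Aldh1l2, the mitochondrial dehydrogenase that oxidizes 10-formyltetrahydrofolate to CO2, had the lowest log2 fold change of the 10 genes over all libraries and in batch 2, while in batch 1 Mthfd2 was lowest. It had 10.6 and 14.2 CPM at 2% CO2 in batch 2, against 24.9 and 20.2 CPM at 10% CO2. In batch 1 it had 17.9, 33.6 and 11.8 CPM at 2% CO2, against 23.9, 19.0 and 18.6 CPM at 10% CO2. In batch 1 replicate 2 at 2% CO2 was the highest library and replicates 1 and 3 the lowest, and replicate 2 rested on 6 counts (exact 95% binomial interval 12.3 to 73.1 CPM). Its log2 fold change was -1.04 ± 0.20 (SE; adjusted p = 0.0371) in batch 2, -0.19 ± 0.25 (0.707) in batch 1 and -0.69 ± 0.19 (0.0249) over all libraries, with a difference between the batches of -0.85 ± 0.33 (unadjusted p = 0.01995, adjusted p = 0.513). The call over all libraries was lost without replicate 4 at 10% CO2 (-0.38, adjusted p = 0.379), without replicate 4 at 2% CO2 (0.124), without replicate 1 at 10% CO2 (0.0510), with DESeq2 (0.0565) and without the 3 shallowest libraries (0.0581). The batch 2 call was lost whichever of its 4 libraries was left out (0.0619 to 0.366) and with DESeq2 (0.104).

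In batch 2 the CPM of the levels did not overlap for 9 of the 10 genes, 2 higher and 7 lower at 2% CO2, but 53.9% of all genes were separated in this way there, 36.2% higher and 17.6% lower. In batch 1 only Mthfd1 was separated, against 25.0% of all genes. With TMM-scaled CPM all 10 genes were separated in batch 2, 2 higher and 8 lower, and in batch 1 Mthfd1 was higher and Mthfd2 lower. The share of all genes separated on that scale within a batch is not given here, so these counts are not read further. The 10 genes did not share a single profile. With each gene's log2 CPM centred on its batch mean, the root mean square distance to the mean profile of the 10 over all 10 libraries was smallest for Shmt2 (0.0765) and greatest for Shmt1 (0.421) and Aldh1l2 (0.414). Among 6561 other genes averaging 20 CPM or more, those near to the mean profile included Rpl7 (0.0517), Jpt1 (0.0584), Gng5 (0.0602) and Atp5pf (0.0667), none of which was called at 2% CO2.

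The wider pathways around these enzymes held 111 listed genes, of which 97 were counted well enough to test, with 6 higher, 9 lower and a median log2 fold change of 0.01. These counts are near the 5.30% of all genes that were higher and the 6.73% that were lower. Of the folate cycle and transport list, 0 of 14 tested genes were higher and 2 lower, and the medians of that list and of all genes were -0.01 and 0.00. Sfxn1, a mitochondrial serine carrier, fell by a log2 of 0.40 to 85.0 ± 17.2 CPM at 2% CO2, against 102 ± 15.9 CPM at 10% CO2 (SD, n = 5 each; adjusted p = 0.0255). Sardh, the sarcosine dehydrogenase, had 1.40 ± 1.41 CPM at 2% CO2, against 4.39 ± 1.33 CPM at 10% CO2 (log2 fold change -1.23, adjusted p = 0.0251), and was at 0 in replicates 2 and 3 at 2% CO2, where the floor of 3 counts was 16.8 and 5.92 CPM, above the mean at 10% CO2. Mthfd2l (log2 fold change -0.13) and the mitochondrial folate carrier Slc25a32 (-0.16) did not pass, and Aldh1l1 and the glycine cleavage gene Gldc had too few counts to be tested over all libraries. Gldc was tested in batch 2 alone and did not pass (0.23, adjusted p = 0.924). The Sfxn1 call was lost without replicate 1 (0.110), 4 (0.0696) or 5 (0.0522) at 2% CO2, and that of Sardh without replicate 1 (0.0592) or 4 (0.0974) at 2% CO2 or replicate 4 at 10% CO2 (0.182).

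Of glycine cleavage and serine use 12 genes were tested, and the nearest to passing was Sptlc1, of sphingolipid synthesis from serine (log2 fold change 0.40, adjusted p = 0.0528). A single gene fell in each of the next lists, 1 of 12 tested genes in the methionine cycle and 1 of 17 in purine and thymidylate synthesis. Mat2a, which makes S-adenosylmethionine, had 222 ± 27.2 CPM at 2% CO2, against 282 ± 17.5 CPM at 10% CO2 (SD, n = 5 each; log2 fold change -0.39, adjusted p = 0.0224). Impdh1, of guanine nucleotide synthesis, had 33.3 ± 3.33 CPM at 2% CO2, against 41.6 ± 6.02 CPM at 10% CO2 (-0.41, adjusted p = 0.0296). The Mat2a call held in 6 of 10 fits that left out a library, being lost without replicates 1 or 4 at 10% CO2 or 3 or 4 at 2% CO2 (0.0533 to 0.0748). That of Impdh1 held in only 3, those without replicate 2 at either level or replicate 3 at 2% CO2, with an adjusted p of at most 0.0899 in the others. Without the 3 shallowest libraries Sardh (adjusted p = 0.0635), Mat2a (log2 fold change -0.26, adjusted p = 0.172) and Impdh1 (adjusted p = 0.0816) were not called. With library totals in place of TMM scaling, Sfxn1 (0.0907) and Impdh1 (0.0737) were not called, and with no filter Impdh1 (0.0699) was not. With no batch term Sfxn1 (0.3382), Sardh (0.1383), Mat2a (0.1183) and Impdh1 (0.1828) were all lost. With a minimum fold of 1.2 Sfxn1 (0.3106), Sardh (0.0701), Mat2a (0.3201) and Impdh1 (0.2855) were lost too.

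Pycr1, Aldh18a1 and Glul, of proline and glutamine synthesis, fell at 2% CO2 over all libraries. Of 18 tested genes of glutamate, aspartate and proline metabolism, 1 was higher and 4 were lower at 2% CO2, against 5.30% higher and 6.73% lower of all genes. Pycr1, the mitochondrial enzyme of the last step of proline synthesis, had 7.20 and 7.31 CPM at 2% CO2 in batch 2, against 17.3 and 23.5 CPM at 10% CO2, and 5.72, 5.60 and 5.92 CPM at 2% CO2 in batch 1, against 12.3, 9.68 and 10.6 CPM at 10% CO2. All 5 libraries at 2% CO2 were below all 5 at 10% CO2, as 5.18% of all genes were separated in either direction. Replicates 2 and 3 at 2% CO2 rested on 1 and 3 counts, and the floor of 3 counts stood at 16.8 CPM in replicate 2, above all 3 batch 1 libraries at 10% CO2, so that replicate does not show the separation. The log2 fold change was -1.30 ± 0.19 (SE; adjusted p = 0.000204), and the call held without the 3 shallowest libraries and whichever library was left out. Within the batches Pycr1 passed in batch 2 (-1.47, adjusted p = 0.0177) and not in batch 1 (-0.90, 0.104). Aldh18a1, which acts at the start of proline synthesis, fell by a log2 of 0.56 (adjusted p = 0.00592), a call that also held in each fit with libraries left out. It passed in neither batch 2 (0.0731) nor batch 1 (0.129), and was lost with no batch term (0.214) or a minimum fold of 1.2 (0.0661). Glul, the glutamine synthetase, fell by a log2 of 0.53 (adjusted p = 0.0201), a call lost without replicate 4 (0.0892) or 5 (0.0524) at 2% CO2 or replicate 4 at 10% CO2 (0.166). The Glul call was also lost with no batch term (0.1225) or a minimum fold of 1.2 (0.135). Neither batch passed for Glul, at -0.71 (0.0731) in batch 2 and -0.27 (0.522) in batch 1.

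Over all libraries Atf4 and several stress factors beside it rose at 2% CO2, where Mthfd2 and Aldh1l2 fell and Asns had a log2 fold change of -0.42 that did not pass. Of 25 tested regulators and targets of the integrated stress response, a list that includes Atf4, 5 were higher and 1 was lower, against 5.30% higher and 6.73% lower of all genes, with a median log2 fold change of 0.09. Atf4 had 403 and 487 CPM at 2% CO2 in batch 2, against 256 and 332 CPM at 10% CO2, and 504, 666 and 541 CPM at 2% CO2 in batch 1, against 365, 383 and 368 CPM at 10% CO2. It rose by a log2 of 0.51 ± 0.11 (SE; adjusted p = 0.00403), with 0.51 in batch 2 (0.140, not passing) and 0.54 in batch 1 (0.0190). It did not pass with no batch term (adjusted p = 0.106) or with a minimum fold of 1.2 in the test (0.0720). Ddit3, which encodes the stress factor CHOP, rose by 1.28 ± 0.14 (adjusted p = 1.55e-05), Atf3 by 1.28 ± 0.18 (0.000161) and Nupr1 by 0.94 ± 0.12 (9.57e-05). Leaving out any 1 library kept the calls of these 4 genes over all libraries. Within the batches, Ddit3 and Nupr1 passed in both, while Atf3 passed in batch 1 (adjusted p = 0.00490) and not in batch 2 (0.0567).

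Trib3 and Chac1, also of this list, did not pass and had opposite signs in the batches. Their batch 1 values rested in part on few counts, with 8 and 11 of Trib3 and 5 and 19 of Chac1 in replicates 2 and 3 at 2% CO2. Trib3, a pseudokinase, had a log2 fold change of -0.39 in batch 2 and 0.49 in batch 1 (unadjusted p of the difference = 0.00595, adjusted p = 0.499). Chac1, which degrades glutathione, had -0.61 in batch 2 and 0.52 in batch 1 (unadjusted p = 0.00234, adjusted p = 0.464). Asns, Aldh1l2 and Psph also had the lower value in batch 2, while Shmt1 and Myc had the higher. Each of these differences had an unadjusted edgeR p under 0.05, as did 8.75% of all genes, and none passed after adjustment. Myc, another known activator of serine and folate genes, had 0.59 in batch 2 (adjusted p = 0.0496) and 0.10 in batch 1 (0.776), and did not pass over all libraries (0.31, adjusted p = 0.114). Without replicate 1 at 2% CO2 it passed (adjusted p = 0.0216).

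**Figure D4:**
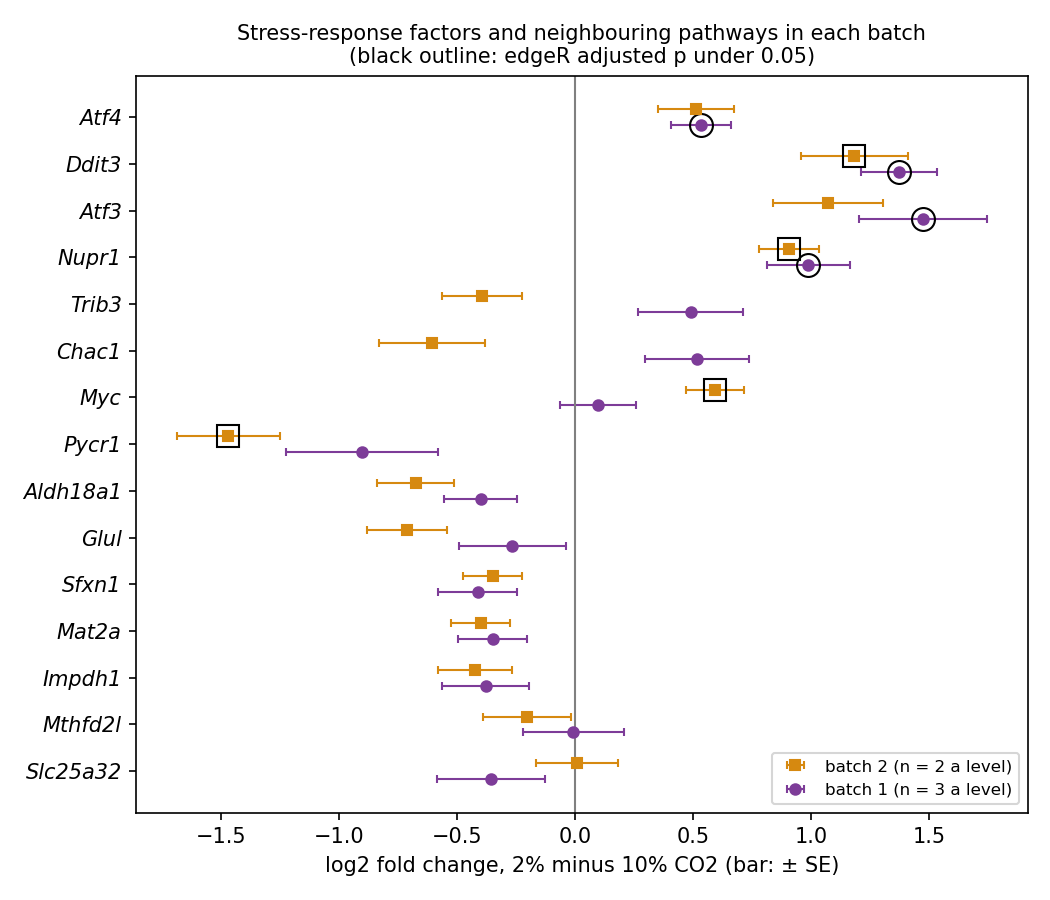
Log2 fold change at 2% against 10% CO2 (x axis) of stress-response factors and genes of neighbouring pathways in batch 2 (orange squares, n = 2 a level) and batch 1 (purple circles, n = 3 a level), with bars of ± 1 standard error and a black outline where the edgeR adjusted p was under 0.05. Atf4, Ddit3, Atf3 and Nupr1 lie right of 0 and Pycr1, Aldh18a1, Glul, Sfxn1, Mat2a and Impdh1 left of it in both batches, while Trib3 and Chac1 lie on opposite sides.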

How the data were processed

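The authors deposited estimated counts for each gene and library without normalization. The submitters' processing notes name build GRCm39 and, in no stated order, MultiQC 1.32, SAMtools 1.22.1, STAR 2.7.11 and Subread 2.1.1 with featureCounts, while settings, annotation and strand are not given in the sources used. The CPM deposited by the authors equalled each count divided by the library total to within 4.8e-05 and served only as that check. Between 71.0% and 79.2% of a library's nonzero counts were whole (tolerance 1e-06). The 92 spike-in entries, all at 0, were left out.

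After rounding to whole numbers, the whole table was tested with edgeR 4.0.16 (R 4.3.3). Genes were kept by filterByExpr with the CO2 level as group, a minimum count of 10 and a minimum total of 15. Libraries were scaled by TMM, and robust quasi-likelihood F tests were two-sided, with a Benjamini-Hochberg adjusted p under 0.05 as the threshold. Models held batch plus CO2, CO2 within each batch, and a CO2 by batch term. The standard error is the absolute log2 fold change divided by the square root of F. It does not always imply the printed p. Asns in batch 1, at -0.04 ± 0.14, had an unadjusted edgeR p of 0.944, larger than this standard error would give. The scripts were tested on simulated data. The table's CPM in the text are counts per library total. Depth was 178676 to 12354538 counts, and intervals cover counting error only. The 8 pairs of libraries of the same level and batch all differed by more than sampling noise.

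Named were the 10 genes, up to 3 called genes of each of 6 wider lists by adjusted p, a fixed set of further genes whether called or not, and the 5 genes nearest in profile, of which some are not reported here. The 10 genes and the lists were chosen with earlier results of these data known. Alternatives tried were DESeq2 1.42.0, limma-voom (limma 3.58.1), scaling by RLE or by library totals, no filter, 10 CPM in 5 libraries, no batch term, the replicate number as a block, a minimum fold of 1.2, each library left out and the 3 shallowest left out. Added after seeing the data were batch 1 without its 2 shallowest libraries and the batch difference without the 3 shallowest. Promoter sequences are RefSeq's (GRCm38.p6), a build other than that of the counts, and were matched by symbol.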

Additional observations from a re-analysis of the deposited data

How the results depend on the processing

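The 24 h comparison rests on 2 libraries a level in batch 2 and on libraries of 178676 and 506405 counts at 2% CO2 in batch 1, and the median standard error over the 10 genes was 0.1326 in batch 2 and 0.1602 in batch 1, so a difference of that size in log2 was within the error of a batch. Over all libraries, 1588 genes, 3 of the 10 genes and 15 genes of the wider lists were called. With no batch term these were 351, 0 and 4. A minimum fold of 1.2 left 543 genes and 0 of the 10, and leaving out the 3 shallowest libraries left 1 of the 10. DESeq2 called 354 genes in batch 1, against 763 with edgeR. In batch 2 no filter gave 1211 genes, against 267. For the difference between the batches no filter gave 104 genes and DESeq2 57 genes with 1 of the 10, Asns, against 0. The cause of these shifts was not tested. Replicate numbers are shared between the levels, and no label says whether same-numbered libraries belong together. With level and batch means removed, same-numbered libraries correlated at 0.172, 0.104, 0.0443, 0.186 and 0.186, and 3 of 5 were closest to their own number. With 2 libraries a level in batch 2, removing the means makes replicates 4 and 5 mirror each other, so their values are not separate. These low but positive values cannot exclude pairing, which the main fits left out. With the replicate number as a block, 6 of the 10 genes were called, with Asns (adjusted p = 0.0156), Phgdh (0.0279) and Psat1 (0.0333) added, and Myc passed too (0.0253). It gave 1480 genes and 5 of the 10 in batch 2, with Phgdh (0.00685) and Psat1 (0.0233) added, and for the difference between the batches 118 genes and 1 of the 10.

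Leaving out each library in turn gave 736 to 1724 genes, 0 to 4 of the 10 and 7 to 15 of the wider lists over all libraries, 10 to 294 genes and 0 to 2 of the 10 in batch 2, 286 to 840 genes and 0 to 0 of the 10 in batch 1, and 0 to 135 genes and 0 to 0 of the 10 for the difference. The lowest gene counts were without replicate 4 at 10% CO2 (736), replicate 4 at 2% CO2 (10) and replicate 3 at 10% CO2 (286), and the 135 came without replicate 4 at 10% CO2. Lone libraries left in a level by this were assumed to vary like the others.

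Signs turned only for values that had not passed. Over all libraries these were Psph (0.046), Shmt2 (0.069) and Chac1 (0.036) with library totals, Shmt2 with 10 CPM in 5 libraries (0.0030), DESeq2 (0.0031), limma-voom (0.0029) and no batch term (0.0027), Chac1 with DESeq2 (0.026), Trib3 (-0.011) with limma-voom, and Trib3 with the replicate block (-0.10). Without the 3 shallowest libraries they were Psph (0.079), Shmt2 (0.067) and Trib3 (-0.050). In batch 2 Shmt2 turned with library totals (0.036), and in batch 1 Phgdh without the 2 shallowest libraries (0.18). The difference between the batches turned for Mthfd1 and Mthfd2 with library totals (0.028 and 0.033) and no filter (0.052 and 0.064), and for Mthfd1 without the 3 shallowest libraries (0.073). Among the values with a library left out, ranges crossing 0 were, over all libraries, Psph (-0.23 to 0.048), Shmt2 (-0.081 to 0.019), Trib3 (-0.20 to 0.31), Chac1 (-0.19 to 0.21), Mthfd2l (-0.27 to 0.037) and Slc25a32 (-0.35 to 0.0025). In batch 1 they were Phgdh (-0.53 to 0.030), Psph (-0.064 to 0.31), Shmt2 (-0.080 to 0.11) and Asns (-0.12 to 0.029), and for the difference Shmt2 (-0.19 to 0.0025), Mthfd1 (-0.27 to 0.10), Mthfd2 (-0.089 to 0.055) and Mthfd1l (-0.34 to 0.0039).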

Other observations

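Outside the naming rule, 4 further genes of the wider lists were called over all libraries, and they are named after their values were seen. Gpt2, the mitochondrial alanine transaminase, had 23.6 CPM at 2% CO2 and 29.0 CPM at 10% CO2 (log2 fold change -0.45, edgeR adjusted p = 0.0493). Pycr3, a cytosolic relative of Pycr1, had 55.0 CPM at 2% CO2 and 41.3 CPM at 10% CO2 (0.46, adjusted p = 0.0363), the opposite sign to Pycr1. Slc7a5, a large amino acid carrier, had 236 CPM at 2% CO2 and 293 CPM at 10% CO2 (-0.43, adjusted p = 0.0124). Ppp1r15a, the phosphatase subunit that ends the integrated stress response, had 42.9 CPM at 2% CO2 and 30.2 CPM at 10% CO2 (0.57, adjusted p = 0.0174). None of the 4 passed in a batch alone. The edgeR adjusted p in batch 2 was 0.0725 for Gpt2, 0.186 for Pycr3, 0.138 for Slc7a5 and 0.0755 for Ppp1r15a. In batch 1 the values were 0.658 for Gpt2, 0.123 for Pycr3, 0.0948 for Slc7a5 and 0.223 for Ppp1r15a.

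Just short of the threshold, beside Sptlc1, the serine palmitoyltransferase subunit, was Gcat, which makes glycine from threonine, at a log2 fold change of 0.68 (adjusted p = 0.0561). Sptlc1 had 42.6 CPM at 2% CO2 and 27.6 CPM at 10% CO2, and Gcat had 32.4 CPM at 2% CO2 and 21.6 CPM at 10% CO2. Both had the same sign in each batch, with 0.50 in batch 2 and 0.29 in batch 1 for Sptlc1 and 0.36 in batch 2 and 0.97 in batch 1 for Gcat. Among the highest log2 fold changes of the wider lists was Ass1, the argininosuccinate synthetase that uses aspartate, at 1.38 ± 0.43 (SE; adjusted p = 0.0736). It had 22.3 CPM at 2% CO2, against 9.21 CPM at 10% CO2.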
